A study of Mus musculus with 8 samples.

Results

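Weakly transcribed piRNA clusters are here the clusters of the deposited cluster table that gave few reads in wild type meiotic cells. They were chosen by 2 limits: a mean level under 1 over both WT meiotic libraries, and a mean of at least 10 raw counts over all 8 libraries. The level of a cluster is its count per kilobase of its length and per 1e6 counts on genes in the same library. The limits were met by 272 of 876 clusters. Of the others, 107 had a level of 1 or more and 497 were under 1 with fewer than 10 counts. Because the WT meiotic libraries chose the members, comparisons that use those libraries are given as descriptions and not as tests. The limit of 10 counts used all 8 libraries, so the tested comparisons are not fully free of the choice either. A cluster with few reads can be a member only through a group where it is high.

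The libraries hold stranded total RNA of mouse spermatogenic cells. H3.3B is a replacement histone encoded by H3f3b, and KO mice (H3.3BKO/KO :Actin Cre WT) were set against WT mice (H3.3BWT/WT :Actin Cre WT), all C57BL/6 males aged 3 to 6 months. From each genotype a meiotic fraction and a post-meiotic fraction (mainly round spermatids) were pooled after sedimentation of dissociated tubule cells, kept in medium with sodium butyrate, through a BSA gradient, with 2 libraries for each of the 4 groups. The post-meiotic fraction also held a few elongated cells. The labels state that RNA came from a single mouse, but not which libraries share a mouse, so the p-values measure the spread between these libraries. Gene counts ran from 57853283 to 92836630 per library and the members together drew 19193 to 37463 counts per library. H3f3b stood at 9.61 and 10.97 counts per 1e6 (CPM, scaled by TMM) in meiotic KO libraries, against 555 and 541 in meiotic WT libraries, and at 6.31 and 7.55 in post-meiotic KO libraries, against 233 and 213 in post-meiotic WT libraries. The spermatid gene Prm1, a protamine, and the spermatocyte gene Hist1h1t, a linker histone, separated the fractions: Prm1 had 4964 and 4802 CPM in post-meiotic KO libraries and 1598 and 1299 in meiotic KO libraries, and Hist1h1t had 57.6 and 52.4 CPM in post-meiotic KO libraries and 926 and 992 in meiotic KO libraries.

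As background, piRNAs are small RNAs that guide PIWI proteins in the germ line. In mouse spermatocytes most of them are cut from long single-stranded precursors that are transcribed from genomic clusters, and the factor A-MYB (Mybl1) drives many of the strongest clusters, often from promoters that fire in both directions. Other clusters lie within coding genes, where piRNAs map to the gene's own transcript or to the opposite strand.

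Since 74 of the 272 members held the start of a coding gene or lay within 1000 bases of one, the 250 bases before such starts were read from the mouse genome (mm9). The 4 windows printed belong to clusters that changed in the comparisons given later, those at Rplp1 and Zfp41 between KO and WT post-meiotic cells and those at Ndufa6 and Hipk4 between KO fractions. Capitals mark the MYB core AACNG or, on the other strand, CNGTT. The windows are chr9:61762346-61762595, minus strand, for Rplp1, chr15:75446859-75447108, plus strand, for Zfp41, chr15:82184722-82184971, minus strand, for Ndufa6, and chr7:28308030-28308279, plus strand, for Hipk4, and each is written 5′ to 3′ on the strand of its gene.
Rplp1: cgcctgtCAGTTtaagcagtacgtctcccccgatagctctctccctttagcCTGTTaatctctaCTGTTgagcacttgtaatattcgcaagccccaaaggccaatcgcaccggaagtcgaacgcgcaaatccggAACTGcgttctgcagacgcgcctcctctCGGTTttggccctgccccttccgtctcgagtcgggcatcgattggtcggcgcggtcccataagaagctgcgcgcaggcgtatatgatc
Zfp41: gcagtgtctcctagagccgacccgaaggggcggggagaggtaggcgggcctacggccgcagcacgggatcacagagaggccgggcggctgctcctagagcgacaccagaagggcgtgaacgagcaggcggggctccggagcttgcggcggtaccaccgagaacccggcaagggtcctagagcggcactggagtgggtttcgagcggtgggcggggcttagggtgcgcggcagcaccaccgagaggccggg
Ndufa6: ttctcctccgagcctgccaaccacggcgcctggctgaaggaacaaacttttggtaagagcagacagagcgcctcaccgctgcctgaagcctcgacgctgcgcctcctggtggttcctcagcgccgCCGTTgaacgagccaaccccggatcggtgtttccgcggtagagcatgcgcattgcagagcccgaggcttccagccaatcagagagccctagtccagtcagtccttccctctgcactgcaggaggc
Hipk4: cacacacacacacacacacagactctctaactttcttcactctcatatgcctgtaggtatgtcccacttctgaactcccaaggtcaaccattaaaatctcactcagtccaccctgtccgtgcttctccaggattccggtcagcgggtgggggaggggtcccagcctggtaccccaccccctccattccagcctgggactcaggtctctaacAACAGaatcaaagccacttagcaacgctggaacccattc
The Rplp1 window held 5 matches to the core, the Ndufa6 and Hipk4 windows 1 each and the Zfp41 window 0. Over the 99 windows of coding gene starts in or beside members, 70.7% held the core on either strand, against 72.8% of the 22375 windows of all coding gene starts. The E-box CACGTG, which reads the same on both strands and does not overlap the core, was in 9.09% of the members' windows and in 6.52% of all windows. A match is a description of letters and not a binding site.

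Most members lay on coding genes. Of the 272, 233 (85.7%) overlapped a protein-coding gene, against 41 of the 107 clusters at or above a level of 1 (38.3%) and 476 of the 497 under 1 with few counts (95.8%), while 29 members overlapped no annotated gene of any kind. Among the 233, the cluster covered the end but not the start of a gene in 152, both in 45, the start alone in 13, and lay inside the gene in 23. The end alone was covered in 65.2% of them, and in 70.6% of the 476 clusters with few counts. The position matters for the counts, because reads on the strands of certain genes had been removed before clusters were counted. The removal ran from 3 kb before the start of a gene to 10 kb beyond its end. It covered listed gene types, protein-coding genes and pseudogenes among them, but not long intergenic non-coding RNAs or processed transcripts. Genes of these last types overlap 27 members. When this removal was rebuilt from the annotation, 174 members had 1 strand left whole and the other removed, 75 were left in part and 23 kept both strands whole, whereas 56 of the 107 stronger clusters kept both. All 140 clusters that the rebuilt removal left without a position had 0 counts in all 8 libraries. Reads of the 174 members therefore come from the strand opposite to the gene or genes removed there. The median member could hold a count at 50% of its positions over both strands, and 19 members would reach a level of 1 if the level were taken per kilobase that could hold a count. "Weakly transcribed" thus refers to the reads that were kept.

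**Figure D1:**
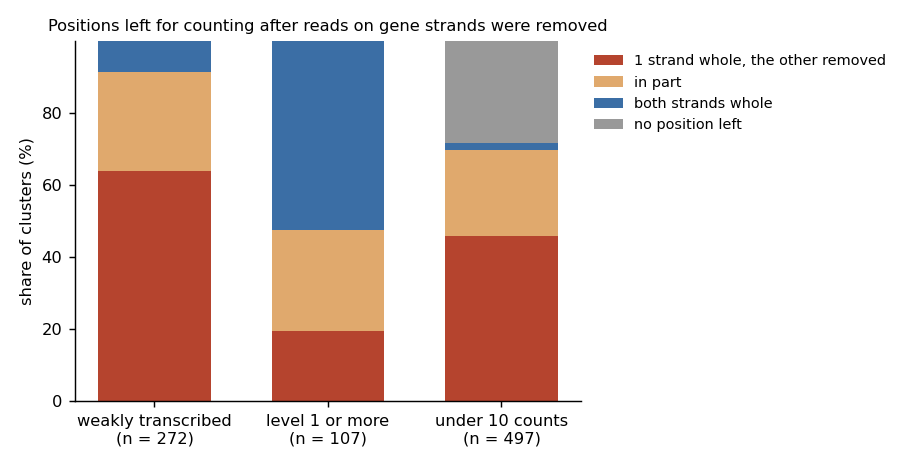
Share of clusters (%) by the positions left for counting once reads on gene strands were removed, for the 272 weakly transcribed clusters, the 107 clusters at a level of 1 or more and the 497 clusters under 10 counts. One whole strand with the other removed is the state of 64.0% of the weakly transcribed clusters and of 19.6% of the clusters at a level of 1 or more.

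Among the 171 of those 174 members whose cluster overlapped a coding gene, the cluster's reads summed over the 8 libraries came to a median of 2.85% of the reads counted on that gene (quartiles 0.720% and 9.05%), with no correction for length. The cluster drew more reads than its gene in 8 of them. Across the 231 members with a tested gene, log2 cluster counts per kilobase and log2 CPM of the gene were only weakly correlated (Pearson's r 0.05, Spearman's rho 0.03), with both values taken from the same libraries.

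Members were 5001 to 125913 bases long, with a median of 9006.5 bases, and their mean counts ran from 10 to 996 with a median of 39. Base composition was close to that of the stronger clusters: median GC content was 46.1% in members and 45.5% in clusters at a level of 1 or more, and the median number of CpG sites was 12.2 per kb in members and 10.3 per kb in those clusters. They were spread over the autosomes, with 27 on chromosome 11, 23 on chromosome 2 and 22 on chromosome 4, and 1 on the X chromosome. The X-linked member (chrX:17069594-17092133, 41557 bases from Fundc1) had levels of 0.0252 and 0.0253 in post-meiotic KO libraries, 0.0253 and 0.0147 in post-meiotic WT libraries, 0.0240 and 0.0205 in meiotic KO libraries and 0.0225 and 0.0243 in meiotic WT libraries, so that 7 libraries lay between 0.0205 and 0.0253 and the second post-meiotic WT library under them.

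At the limits, the members with the highest WT meiotic levels were at 0.846, 0.883 (near 1700091E21Rik) and 0.930 (in Tcf20). The member at 0.846 overlaps RP24-201C14.5 and the histone gene Hist2h3c1 on chromosome 3. The clusters just past the limit were at 1.06, 1.12 and 1.16. The members with the fewest counts averaged 10, 10.1 and 10.2 counts, in Tef, Mcart1 and Mlec, and the clusters just under the limit averaged 9.75 counts. In WT post-meiotic cells 3 members had a mean level over 1, those in Tcf20 (1.73), Vhl (1.46) and, named after the values were seen, Ogdh (1.15). The 3 longest members were the 125913-base cluster that begins in D10Wsu102e, an 86507-base cluster near the imprinted gene Zim1 and a 26027-base cluster in Rbm14, and the 3 shortest lay in 2410066E13Rik, near Zfp825 and in Otud7b (5001 to 5023 bases).

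The summed level of the 272 members was similar in the 4 groups. It was 38.3 and 40.3 in meiotic KO libraries and 39.9 and 37.4 in meiotic WT libraries, and 33.9 and 35.8 in post-meiotic KO libraries and 31.5 and 31.8 in post-meiotic WT libraries. At this scaling the libraries of the 2 genotypes overlapped in meiotic cells and did not in post-meiotic cells. When counts were scaled by TMM, the post-meiotic sums overlapped as well, at 33.3 and 35.4 in KO and 33.2 and 33.9 in WT libraries. The 107 clusters at or above a level of 1 summed to 305 and 299 in post-meiotic KO libraries and to 1068 and 1189 in meiotic KO libraries. Members thus held 6.40% and 6.81% of all cluster counts in post-meiotic KO libraries, and 1.19% and 1.09% in meiotic KO libraries. Members and stronger clusters were split by their WT meiotic level, so their unlike course between fractions is only a description. In these bulk samples fewer cells of a type and less RNA per cell cannot be told apart.

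**Figure D2:**
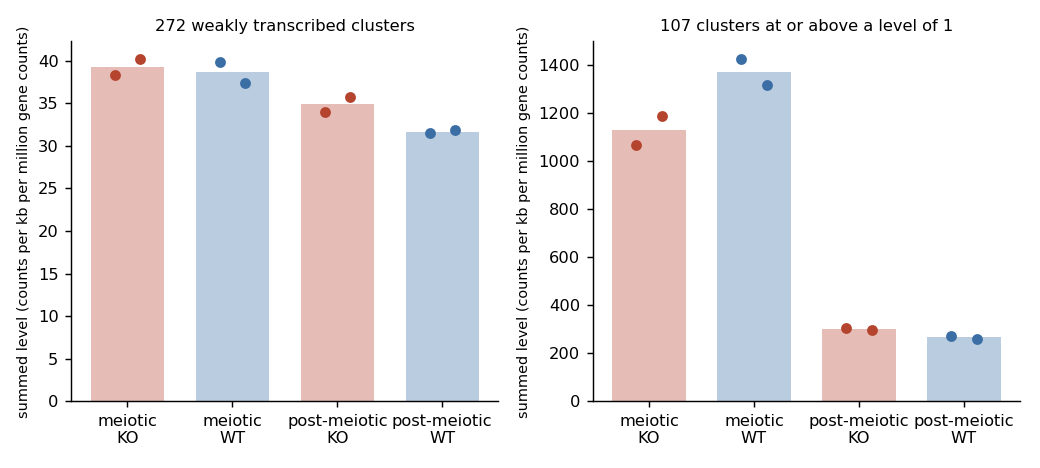
Summed level (counts per kb per 1e6 gene counts) of the 272 weakly transcribed clusters (left) and the 107 clusters at a level of 1 or more (right) in the 4 groups. Points are libraries and bars their mean (n = 2). The members stay between 31.5 and 40.3 in all 8 libraries, while the stronger clusters are lower in the post-meiotic libraries of both genotypes. The split was made on WT meiotic levels, so the contrast between panels is a description.

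KO and WT post-meiotic cells were compared to ask whether the loss of H3.3B left weak clusters changed after meiosis. Few members differed: 10 of 272 were higher and 2 lower in KO cells, and 260 did not pass (edgeR quasi-likelihood test, adjusted p under 0.01 and a log2 change past 0.5). Over all 20814 genes and clusters tested, 7.23% were higher and 2.78% lower. The members' shares were 3.68% higher and 0.735% lower, under both. Their median log2 change was 0.10, against 0.04 over all features, and the median standard error of a member's change was 0.29, against 0.12 over all features, so that small changes were not detectable at this depth. By the strands left for counting, 4 of the 174 members with 1 whole strand were higher and 1 lower, 4 and 1 of the 75 left in part, and 2 and 0 of the 23 with both strands whole. Between the 2 libraries of a group, the median absolute log2 difference of a member was 0.26 in post-meiotic KO and 0.29 in post-meiotic WT cells. Scaling by library totals alone shifted the median of all features by 0.10 and gave 14 higher and 1 lower.

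**Figure D3:**
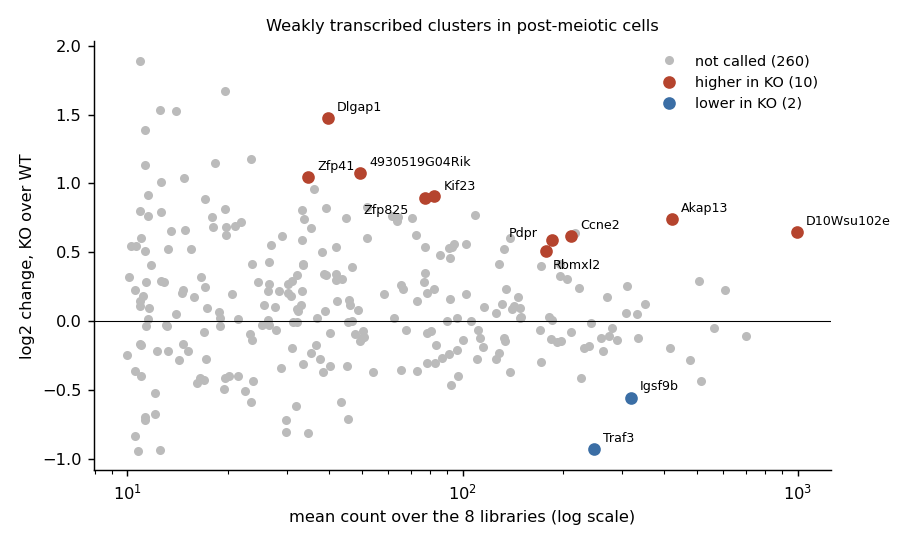
Log2 change of the 272 members in post-meiotic cells, KO over WT, against their mean count over the 8 libraries (log scale). Red points are the 10 members called higher in KO cells, blue points the 2 called lower, each named by the coding gene it overlaps or else the nearest gene. The spread of uncalled members widens at low counts.

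The 2 members that were lower in KO post-meiotic cells are both well covered. The cluster at the end of Traf3 (chr12:112497219-112507218), an adaptor of innate immune signalling, had levels of 0.327 and 0.332 in KO and 0.563 and 0.603 in WT post-meiotic libraries (log2 −0.93 ± 0.12, edgeR adjusted p = 9.14e-06, n = 2 each). Every KO library was under every WT library. In meiotic cells the same cluster stood at 0.256 and 0.251 in KO and 0.384 and 0.357 in WT libraries. Its counted reads lie on the strand opposite to Traf3, whose own reads gave log2 0.12 ± 0.13 in post-meiotic cells (edgeR adjusted p = 0.504). The second cluster lies 9698 bases from Igsf9b (chr9:27152046-27166438), a cell adhesion gene, and had levels of 0.272 and 0.299 in KO and 0.403 and 0.376 in WT post-meiotic libraries (log2 −0.56 ± 0.11, edgeR adjusted p = 9.74e-04). It also stood lower in the meiotic KO libraries, at 0.283 and 0.263 against 0.451 and 0.394 in meiotic WT libraries. Igsf9b itself gave log2 −0.56 ± 0.18 in post-meiotic cells (edgeR adjusted p = 0.0184, not past the limit) and log2 −0.53 ± 0.16 in meiotic cells. Without the first KO post-meiotic library the change of the cluster was −0.51 and no longer passed.

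Of the 10 members that were higher in KO post-meiotic cells, 2 kept the call whichever library was left out. The longest member (chr10:82824792-82950704), which begins in D10Wsu102e, had levels of 0.171 and 0.194 in KO and 0.107 and 0.111 in WT post-meiotic libraries (log2 0.65 ± 0.09, edgeR adjusted p = 3.71e-05), and in meiotic cells 0.103 and 0.106 in KO and 0.105 and 0.0826 in WT libraries. A cluster on chromosome 7 (chr7:82909948-82929897), 10453 bases from Akap13, which anchors protein kinase A, had 0.462 and 0.445 in KO and 0.244 and 0.262 in WT post-meiotic libraries (log2 0.74 ± 0.11, edgeR adjusted p = 6.21e-05). In both clusters the post-meiotic KO libraries stood above all 6 other libraries. The Akap13 cluster had both strands left for counting, so its reads are assigned to no gene strand. Akap13, whose end lies 10453 bases away and so outside the 10 kb margin, gave log2 0.37 ± 0.09 (edgeR adjusted p = 0.00289). D10Wsu102e gave log2 0.32 ± 0.10 (edgeR adjusted p = 0.0209). Both genes lay on the side of their clusters, but neither was past both limits, and a link between gene and cluster was not tested.

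The other 8 had lower counts than these 2 clusters and lost the call when at least 1 library was left out. In an intron of Dlgap1, a scaffold gene of synapses, the cluster chr17:71146419-71153323 had 64 and 64 raw counts in KO and 34 and 11 in WT post-meiotic libraries (log2 1.48 ± 0.31, edgeR adjusted p = 0.00132). The WT libraries differ widely here, and the change was 0.94 without the second of them. Dlgap1 itself was also higher in KO post-meiotic cells, with 4.63 and 4.65 CPM in KO and 1.83 and 2.13 CPM in WT libraries (log2 1.23 ± 0.14, edgeR adjusted p = 2.14e-06). The cluster chr9:61756845-61766778 holds the start of Rplp1, a ribosomal stalk protein whose upstream window with 5 MYB cores is printed earlier, and the end of Kif23, a kinesin of cell division. Its counts were 70 and 65 in KO and 40 and 30 in WT post-meiotic libraries (log2 0.91 ± 0.22, edgeR adjusted p = 0.00276). Neither gene passed (Rplp1 log2 0.01 ± 0.06, Kif23 log2 0.13 ± 0.05). At Zfp41, a zinc finger gene whose window held no core, the cluster chr15:75446469-75459451 had 61 and 58 counts in KO and 27 and 29 in WT post-meiotic libraries (log2 1.05 ± 0.26, edgeR adjusted p = 0.00347).

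A cluster 33491 bases from Zfp825 had 93 and 60 counts in KO and 43 and 37 in WT post-meiotic libraries (log2 0.89 ± 0.23), and one across Gm13821 and 4930519G04Rik had 55 and 64 in KO and 28 and 27 in WT libraries (log2 1.08 ± 0.28). Named after their values were seen, the last 3 lie 339 bases from Ccne2, which encodes cyclin E2 (log2 0.62 ± 0.17), at the end of Pdpr, a regulator of pyruvate dehydrogenase phosphatase (log2 0.59 ± 0.15), and 8128 bases from Rbmxl2, a testis RNA-binding protein (log2 0.51 ± 0.14). Without the first KO, second KO, first WT or second WT post-meiotic library, 2, 3, 3 and 3 members were higher and 1, 2, 4 and 2 lower, and DESeq2 called 3 higher and 2 lower.

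**Figure D4:**
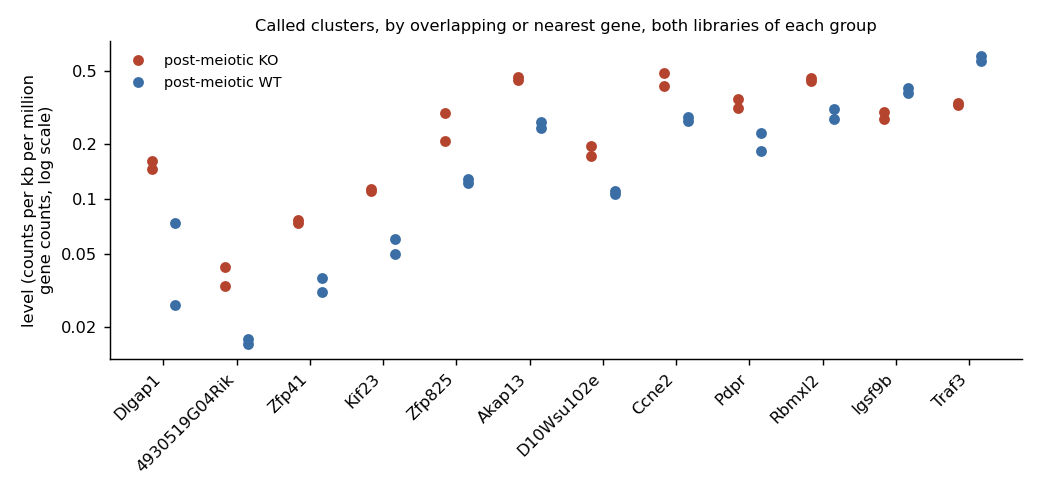
Levels (counts per kb per 1e6 gene counts, log scale) in the 4 post-meiotic libraries of the 12 called members, KO in red left of WT in blue, named by overlapping coding gene or nearest gene and ordered by log2 change. The 2 WT points of the Dlgap1 cluster are the most spread.

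Markers of other cells differed between the same libraries. Red blood cell genes summed to 30.3 to 32.1 CPM in KO and 11.1 to 11.6 CPM in WT post-meiotic libraries (4 of 5 higher in KO at adjusted p under 0.01), leukocyte genes to 125 to 143 in KO and 64.96 to 66.4 in WT (7 of 13), and genes of peritubular cells and fibroblasts to 258 to 334 in KO and 131 to 171 in WT (5 of 11). Sertoli cell genes summed to 219 to 222 CPM in KO and 160.2 to 183 CPM in WT libraries (7 of 14 higher), and meiotic genes such as Hist1h1t to 402 to 433 in KO and 312 to 316 in WT (3 of 4 higher). Of the other lists, Leydig cell genes had 1 higher and 1 lower of 11, endothelial genes 2 lower of 9, spermatogonial genes 3 higher of 12 and round spermatid genes 1 lower of 4, the last summing to 18148 to 18925 CPM in KO and 20844 to 20868 CPM in WT libraries. With this limit 12.2% of all features were higher and 11.5% lower. No defining marker among the tested genes was at 0 in a whole group. The part of these cells in the cluster differences was not tested.

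Post-meiotic and meiotic KO cells were compared to ask how weak clusters pass the end of meiosis without H3.3B. They moved in both directions: 28 of 272 were higher and 52 lower in post-meiotic KO cells, and 192 did not pass. Over all features 22.0% were higher and 23.5% lower, while the members' shares were 10.3% and 19.12%. The median standard error of a member's change was 0.27, against 0.11 over all features. Members were thus harder to call, and their lower shares are not read as smaller changes. The median log2 change of members was 0.02 (quartiles −0.58 and 0.47), against 0.05 over all features. The 107 clusters at or above a level of 1 had a median of −2.50, with 87 lower and 5 higher. The split by WT meiotic level carries over to the meiotic KO libraries compared here. Median levels in these were 0.0675 and 0.0744 in members and 6.07 and 6.69 in the stronger clusters. The contrast between members and stronger clusters is therefore only a description. Leaving out any 1 library kept 14 of the 28 and 33 of the 52 calls in every case, and 18 members were higher without the second post-meiotic KO library. Marker genes of cell types were counted at adjusted p under 0.01 alone, where 29.3% of all features were higher and 31.4% lower. All 5 red blood cell genes, all 11 genes of peritubular cells and fibroblasts and 11 of 13 leukocyte genes were higher in post-meiotic KO cells. Of 11 Leydig cell genes, 10 were lower and 1 higher. Sertoli cell genes, with 5 of 14 higher, were near the share of all features, and 5 of 9 endothelial genes were higher. Lower were 6 of 12 spermatogonial and all 4 meiotic genes, and all 4 round spermatid genes were higher. The peritubular genes summed to 258 to 334 CPM in post-meiotic KO and 41.7 to 45.3 CPM in meiotic KO libraries. The part of these cells in the cluster changes was not tested. By the strands left for counting, 20 of the 174 members with 1 whole strand were higher and 27 lower (median log2 0.10), 7 and 19 of the 75 left in part (median −0.12), and 1 and 6 of the 23 with both strands whole (median −0.10).

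**Figure D5:**
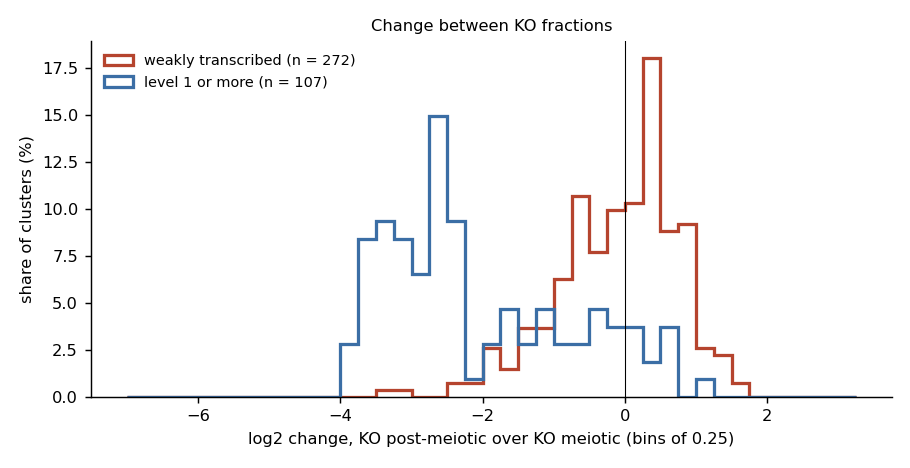
Distribution of log2 changes between KO fractions, post-meiotic over meiotic, as a share of clusters (%) in bins of 0.25, for the 272 weakly transcribed clusters (red) and the 107 clusters at a level of 1 or more (blue). Members centre on a median of 0.02 and reach −3.39 and 1.61, whereas the stronger clusters have a median of −2.50. The split was made on WT meiotic levels, so the contrast between the curves is a description.

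Of the 52 lower members, the 5 with the smallest adjusted p are given here. The steepest lay at Zfp280b (chr10:75498045-75508552), a zinc finger gene, with 21 and 18 counts in post-meiotic KO and 183 and 379 in meiotic KO libraries (log2 −3.39 ± 0.26, edgeR adjusted p = 3.31e-09). Large drops were also seen for the clusters at Ipmk (chr10:70841886-70849359), an inositol phosphate kinase, with levels of 0.114 and 0.0925 in post-meiotic KO and 0.444 and 0.442 in meiotic KO libraries (log2 −1.99 ± 0.17), and at Srl (chr16:4477014-4484814), sarcalumenin, with 0.0485 and 0.0576 in post-meiotic KO and 0.247 and 0.290 in meiotic KO libraries (log2 −2.25 ± 0.21). All 3 have 1 strand left whole. Zfp280b and Ipmk were themselves lower in post-meiotic KO cells (log2 −1.02 ± 0.10 and log2 −1.03 ± 0.08, edgeR adjusted p = 3.73e-08 and 1.43e-09), whereas Srl gave log2 0.09 ± 0.14 (adjusted p = 0.564). The cluster at Ndufa6 (chr15:82180442-82196456), a subunit of respiratory complex I, had levels of 0.0857 and 0.0971 in post-meiotic KO and 0.383 and 0.371 in meiotic KO libraries (log2 −1.94 ± 0.13, edgeR adjusted p = 7.39e-11), while the gene changed by log2 −0.38 ± 0.06. A cluster at Gm17408 (chr4:123565244-123576669) had 0.116 and 0.112 in post-meiotic KO and 0.428 and 0.450 in meiotic KO libraries (log2 −1.84 ± 0.14). In each of these 5 the post-meiotic KO libraries lay far under the meiotic KO libraries.

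Of the 28 higher members, the 5 with the smallest adjusted p are given here. At Vhl (chr6:113576369-113584981), which marks hypoxia factors for degradation, the cluster had levels of 1.55 and 1.48 in post-meiotic KO and 0.607 and 0.553 in meiotic KO libraries (log2 1.49 ± 0.11, edgeR adjusted p = 1.85e-10), and the gene gave log2 0.47 ± 0.06. At 2410066E13Rik (chr6:54648803-54653811) it had 0.721 and 0.683 in post-meiotic KO and 0.253 and 0.241 in meiotic KO libraries (log2 1.61 ± 0.15, edgeR adjusted p = 6.21e-09). Neither cluster differed past the limit between KO and WT post-meiotic cells. Near Prx, a myelin gene, and Hipk4, a kinase gene whose start window is printed earlier, the cluster chr7:28299048-28308003 had 0.261 and 0.262 in post-meiotic KO and 0.113 and 0.0830 in meiotic KO libraries (log2 1.55 ± 0.19, edgeR adjusted p = 3.37e-07). In Tcf20 (chr15:82681493-82689430), a transcriptional regulator, the levels were 1.67 and 1.78 in post-meiotic KO and 1.12 and 1.06 in meiotic KO libraries (log2 0.77 ± 0.09). The D10Wsu102e cluster was called here too (log2 0.91 ± 0.09, edgeR adjusted p = 3.89e-08), so that it was higher in post-meiotic KO cells than in either set it was tested against. These 2 comparisons share the post-meiotic KO libraries, and the overlap of their calls was not counted over all features. Among the members 5 were called in both, which is given as a count only. Those at D10Wsu102e, Akap13, Zfp41 (log2 1.33 ± 0.25) and Dlgap1 (log2 0.98 ± 0.28) were higher in both, whereas the Rplp1 and Kif23 cluster, higher in KO than in WT post-meiotic cells, was lower in post-meiotic than in meiotic KO cells (log2 −0.58 ± 0.17, edgeR adjusted p = 0.00611). Between KO fractions the genes D10Wsu102e (log2 −0.40 ± 0.10) and Kif23 (log2 0.29 ± 0.05) changed in the direction opposite to their clusters. The gene Dlgap1 changed with its cluster (log2 0.68 ± 0.12), and Rplp1 did not pass (log2 −0.05 ± 0.06, edgeR adjusted p = 0.462).

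Among the members with the most counts, 2 are not yet described. The cluster at Ctnnal1 and D730040F13Rik (chr4:56876299-56895481) stayed near the same level, with 0.506 and 0.518 in post-meiotic KO and 0.478 and 0.501 in meiotic KO libraries (log2 0.16 ± 0.09, edgeR adjusted p = 0.0997). The cluster at AU022252 and 4930538K18Rik (chr4:118890606-118901631) was higher, with 0.778 and 0.789 in post-meiotic KO and 0.507 and 0.560 in meiotic KO libraries (log2 0.65 ± 0.11, edgeR adjusted p = 4.25e-05), while AU022252, which it overlaps, was lower (log2 −1.30 ± 0.06) and 4930538K18Rik higher (log2 1.70 ± 0.07). These 2 genes overlap on the same strand, so their own counts are uncertain. The long cluster near Zim1, with both strands left for counting, gave log2 −0.01 ± 0.12.

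Changes of members were set beside those of the genes they overlap. Of the 66 members called between KO fractions that overlap a tested coding gene, 21 had a gene called in the same direction, 14 one called in the opposite direction and 31 a gene that was not called. Over all tested genes 22.3% were called higher and 23.3% lower between KO fractions. Between KO and WT post-meiotic cells, 7 called members overlap a tested coding gene, and that gene was called, in the same direction, at 1 of them (Dlgap1). Of all tested genes 7.28% were called higher there and 2.82% lower. Across the 231 members with such a gene, the Pearson correlation of the 2 log2 changes was 0.08 between KO and WT post-meiotic cells and 0.09 between KO fractions. Both values of a pair come from the same libraries.

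The contrasts that use the WT meiotic libraries are given as values only. Between KO and WT meiotic cells 4 members were past the limits in KO on the higher side and 4 on the lower side, where 4.62% and 3.08% of all features were. Members with at least 30 mean counts that stood lowest in KO were those near Igsf9b (log2 −0.70 ± 0.11), at 2310003C23Rik (log2 −0.74 ± 0.28) and at the Wnt receptor gene Fzd3 (log2 −0.67 ± 0.25), and the highest were those at Gm13821 (log2 1.04 ± 0.27), Brwd1 (log2 0.95 ± 0.25) and the GTPase gene Rab11b (log2 0.82 ± 0.27). The median log2 change of members was 0.05, and that of the 107 stronger clusters −0.34. Between WT post-meiotic and WT meiotic cells 41 members were past the limits on the higher side and 63 on the lower side, where 24.1% and 25.6% of all features were. Of the members called between KO fractions, 20 of 28 on the higher side (71.4%, and 48.8% of the 41 in WT) and 49 of 52 on the lower side (94.2%, and 77.8% of the 63 in WT) were past the limits in the same direction in WT, and 0 in the opposite one. This overlap was not counted over all features, so it is not read as a trait of the members.

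Genes of the piRNA pathway were measured in the same libraries. The PIWI genes Piwil1, Piwil2 and Piwil4 were all lower in post-meiotic KO cells than in meiotic KO cells, Piwil1 with 50.8 and 49.6 CPM in post-meiotic KO and 460.4 and 518 CPM in meiotic KO libraries (log2 −3.28 ± 0.06, edgeR adjusted p = 5.48e-18). Of 21 genes of piRNA processing and germ granules, 18 were lower and 1 higher at adjusted p under 0.01, where 31.4% of all features were lower and 29.3% higher, and the helicase Mov10l1 gave log2 −1.49 ± 0.06 and the Tudor protein Tdrd1 log2 −3.01 ± 0.06. Of the cluster activators, Mybl1 was lower (log2 −1.25 ± 0.06) and Tcfl5 did not pass (log2 −0.11 ± 0.04, edgeR adjusted p = 0.0348). Between KO and WT post-meiotic cells Mybl1 gave log2 −0.09 ± 0.06 and Tcfl5 log2 −0.00117 ± 0.04, and neither passed (0 of 2 in edgeR, and 0 at an unadjusted p under 0.05). Of the 3 PIWI genes 0 passed there in edgeR, with 1 at an unadjusted p under 0.05. In that comparison 2 of the 21 processing genes were higher, Fkbp6, a co-chaperone (log2 0.58 ± 0.07), and Mov10l1 (log2 0.37 ± 0.06), and 6 were lower, among them the granule protein Rnf17 (log2 −0.31 ± 0.05) and the PIWI cofactor Gtsf1 (log2 −0.29 ± 0.05). With the same limit 12.2% of all features were higher there and 11.5% lower.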

How the data were processed

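RNA-seq of 8 libraries, 2 for each of 4 groups, was analysed from the deposited tables. The authors prepared strand-specific total RNA libraries, made reads with bcl2fastq 2.17.1.14, used TopHat2 2.0.14 and Bowtie2 2.1.0 for alignment to the mm9 genome, and counted genes with HTSeq 0.6.1. For piRNA clusters the authors removed split reads and reads on the strand of annotated genes of listed types, extended by 3 kb before the start and 10 kb after the end. They deposited raw counts over database clusters moved to mm9 by liftOver. The deposited log2 and p-value columns, from DESeq2 1.14.1, hold the authors' own comparisons and were not used, nor was the table of repeats.

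Raw counts of genes and clusters were fitted together over all 8 libraries with edgeR 4.0.16 in R 4.3.3 (expression filter, TMM, robust quasi-likelihood, 1 term per group), which left 20412 genes and 402 clusters, all 272 members among them. The Benjamini-Hochberg adjustment ran over all 20814 features. Standard errors (±) of log2 changes were derived from the F statistics. Features were called past both limits, 0.01 for the adjusted p and 0.5 for the size of the log2 change, and lists of genes were counted at the adjusted p alone. TMM factors ran from 0.935 to 1.06. Gene positions came with the deposited gene counts. Strands, gene types, exons and the windows before gene starts came from GENCODE on the same build, with an entry for 29645 of 29880 genes. That release is not the one the authors used, so the strands left for single clusters may differ. Sequences were read from the mm9 genome.

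Alternatives were RLE factors, library totals, TMM from genes alone, DESeq2 1.42.0, no filter, a fit of only the 4 libraries in question, a block for the replicate number, omission of each library, member limits of 0.5 and 30 counts, and no fold minimum. The fit was tested on simulated data that gave every feature the same spread beyond counting noise, and no result given here rests on that test. The clusters named are up to 5 called members per direction of each tested comparison ranked by adjusted p, the 5 with most counts, those at the limits, on X or Y, the 3 longest and shortest, and the 3 largest changes each way between KO and WT meiotic cells, with their nearest genes. Gene lists were written by hand. The members, lists and limits were chosen with earlier results of these data known.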

Additional observations from a re-analysis of the deposited data

Results flagged for a closer look

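In 3 of the 33 clusters named, both KO libraries lay above both WT libraries in post-meiotic cells and under them in meiotic cells. Opposite sides in the 2 fractions were found for 20 of the 272 members (7.35%), against 9.32% of all features tested. The difference between fractions was not tested, since the WT meiotic libraries chose the members. The Ndufa6 cluster stood higher in post-meiotic KO cells (log2 0.18 ± 0.16, KO over WT) and lower in meiotic KO cells (log2 −0.39 ± 0.11). For the Srl cluster the values were log2 0.56 ± 0.31 in post-meiotic and log2 −0.50 ± 0.15 in meiotic cells. For the cluster at Ctnnal1 and D730040F13Rik they were log2 0.23 ± 0.09 and log2 −0.19 ± 0.09. The post-meiotic changes did not pass the test (edgeR adjusted p = 0.419, 0.161 and 0.0547).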

How the results depend on the processing

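With DESeq2, 3 members were higher in KO than in WT post-meiotic cells, 18 were higher between KO fractions, 24 were past the limits on the higher side between WT fractions, and 0 on the higher side between KO and WT meiotic cells (9 at an unadjusted p under 0.05 and the same fold). Library totals alone left 1 member lower in KO post-meiotic cells, and fits of the 4 libraries compared left 1 on the higher side between KO and WT meiotic cells. Scaled by TMM, the summed level of members was 36.0 in meiotic KO and 33.52 in post-meiotic WT cells. Leaving out 1 library at a time gave 2 to 10 members higher and 1 to 4 lower between KO and WT post-meiotic cells, 18 to 27 higher and 36 to 53 lower between KO fractions, 1 to 4 on either side between KO and WT meiotic cells, and 25 to 38 and 50 to 61 between WT fractions. The gene Zfp41, at log2 0.02 between KO and WT post-meiotic cells, was at −0.0222 with RLE factors and with DESeq2 and from −0.014 to 0.026 with a library left out, and Srl ran from −0.00181 to 0.134 between KO fractions with a library left out. With the replicate number as a block, 10 members were higher and 2 lower between KO and WT post-meiotic cells, and 29 and 52 between KO fractions. Same-numbered libraries are not said to share a mouse or day, and the correlations of their deviations ran from −0.06 to 0.10 over all features and from −0.07 to 0.19 over clusters, with 0.19 between post-meiotic KO and WT cells, so the numbers were not taken as pairs. Counting members only up to a level of 1 per kilobase that could hold a count, chosen after seeing the data, gave 10 higher and 2 lower, and 24 and 42. Depth limits members near 10 counts most.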
